A study of Mus musculus with 12 samples.

Results

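Titin and the proteins that hold it in the sarcomere were followed as 10 genes in mouse embryonic stem cell progenitors. They were chosen by name from the probe sets whose platform annotation lists 1 gene: Ttn, Actn2, Tcap, Ldb3, Csrp3, Myoz2, Myom1, Nebl, Smpx and Des. They are 10 of the 18193 genes on the array with such a probe set, and they have 20 of the 34945 such probe sets. Each gene is given by the probe set whose mean over all 12 arrays was largest, and the other probe sets are described separately. The choice of genes used no measured value, but it was made with earlier results of these data known.

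Embryonic stem cells carrying a dsRed reporter of the second heart field and an eGFP reporter of a cardiac-specific enhancer were differentiated in hanging drops. Embryoid bodies were dissociated on day 6, and cells were sorted by both colours into 4 populations, each with 3 arrays from experiments A, B and C. Double-positive cells carried dsRed and eGFP signal, red-only cells dsRed alone, green-only cells eGFP alone, and double-negative cells neither. All 4 populations came from the same reporter system, whose enhancers the labels describe only in these terms, and none received a further treatment that the labels name. The populations are sorted mixtures defined by reporter signal. The labels do not say whether the experiments were separate differentiations, so the p-values measure only the spread between these samples, which may be technical.

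Titin is the giant spring of striated muscle. It is anchored at the Z-disc, where alpha-actinin crosslinks thin filaments, and reaches to the M-band, where myomesin ties thick filaments together. In heart muscle, Z-disc proteins also serve as attachment points for stress-sensing LIM proteins, while desmin filaments link neighbouring Z-discs to each other and to the cell membrane. Many genes of this system are known targets of serum response factor, which binds the CArG box, and of MEF2 factors.

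The stretches upstream of 4 members are shown as examples that hold the CArG box or the MEF2 consensus. Ttn, Ldb3 and Myom1 were high in reporter-positive cells and Myoz2 was not. Nebl, which also has a CArG box, is not shown. The sequences are the 250 bases before a RefSeq gene start in the GRCm38.p6 build, read 5′ to 3′ along the gene, with the motif in capitals.
Ttn, chr2:76982548-76982797, minus strand: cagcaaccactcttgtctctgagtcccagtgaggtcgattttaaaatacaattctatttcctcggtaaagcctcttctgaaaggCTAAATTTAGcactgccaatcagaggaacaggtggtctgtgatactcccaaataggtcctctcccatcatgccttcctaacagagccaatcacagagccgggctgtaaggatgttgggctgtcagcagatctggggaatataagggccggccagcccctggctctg
Ldb3, chr14:34588682-34588931, minus strand: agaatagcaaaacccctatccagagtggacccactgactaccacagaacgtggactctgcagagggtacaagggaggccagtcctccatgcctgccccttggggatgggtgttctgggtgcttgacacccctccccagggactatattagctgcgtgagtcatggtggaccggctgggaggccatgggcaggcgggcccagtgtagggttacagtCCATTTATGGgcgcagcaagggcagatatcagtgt
Myom1, chr17:71019307-71019556, plus strand: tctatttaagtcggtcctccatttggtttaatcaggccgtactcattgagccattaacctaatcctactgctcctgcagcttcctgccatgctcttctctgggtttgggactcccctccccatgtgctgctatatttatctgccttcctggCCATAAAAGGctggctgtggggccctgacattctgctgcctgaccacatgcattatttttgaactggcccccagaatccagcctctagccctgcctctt
Myoz2, chr3:123034988-123035237, minus strand: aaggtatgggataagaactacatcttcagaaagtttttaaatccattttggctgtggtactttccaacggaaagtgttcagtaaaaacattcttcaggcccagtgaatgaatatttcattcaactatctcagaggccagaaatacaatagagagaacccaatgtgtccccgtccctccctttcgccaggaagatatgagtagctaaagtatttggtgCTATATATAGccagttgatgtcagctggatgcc

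The Ttn stretch has the MEF2 consensus at 166 to 157 bases before the start, and Myoz2 has one at 33 to 24 bases before it. The capitals mark a CArG box at 35 to 26 bases before the start of Ldb3 and at 99 to 90 bases before that of Myom1. RefSeq windows were matched for 9 of the 10 genes, with 14 windows in all, and Tcap had no match. On both strands, the CArG box was found in 4 of the 14 windows, which belong to Ldb3, Myom1 and Nebl, and in 1.47% of the 32851 promoter windows of the same length. The windows of Ldb3 overlap and share 1 box. The MEF2 consensus was found in 2 of the 14 windows and in 2.92% of all windows. The E-box CANNTG was found in 9 of the 14 windows and in 66.2% of all windows, and the M-CAT motif CATTCC in 1 of the 14, that of Nebl, and in 12.6% of all. The GATA motif AGATAA was found in 4 of the 14, of Myom1, Nebl and Smpx, and in 9.99% of all windows. These are matches of letters, and the arrays do not show which start site was used.

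The arrays were checked against marker genes first. The summed intensity of 7 of 7 cardiomyocyte markers ran from 14804 to 19678 units in double-positive cells, 8364 to 10140 in green-only cells, 2722 to 4264 in red-only cells and 311 to 486 in double-negative cells. Of 9 skeletal muscle markers, Myf5, Myf6, Pax7, Tnnt3 and Myh3 were below the median of their own array on all 12 arrays. Ckm, from 8.60 to 15.1 units, was above it on all 12. Myog, from 5.69 to 8.31 units, and Myod1, from 5.06 to 6.95, lay on both sides of it. The sum of the 9 ran from 100.2 to 239.9 units on double-positive arrays, 105 to 133.1 on green-only arrays, 62.7 to 66.2 on red-only arrays and 62.4 to 70.4 on double-negative arrays, and Acta1 alone ran from 17.3 to 190.2. The sum of 6 smooth muscle markers ran from 277 to 353 units in double-negative to 3783 to 4939 in double-positive cells. Most of this sum was Acta2, with means of 3924 units for double-positive, 2216 for green-only, 1030 for red-only and 185 for double-negative arrays. Cnn1 had the same order, from 130.3 down to 15.9 units. Tagln and Smtn were instead highest in green-only cells, at 141.2 and 45.0 units against 111.9 and 33.7 in double-positive cells. Lmod1 means stayed between 9.8 and 15.6 units, and Myh11 was below the array median in every population. The part of the smooth muscle sum in the results was not tested. In bulk samples such as these, fewer cells of a type and less RNA per cell cannot be told apart.

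Of the other cell types, 5 pluripotency markers summed to 1298 to 1583 units in double-negative cells and 90.2 to 132.4 elsewhere. The sum of 5 blood markers was 1068 to 1960 units in double-negative cells and 57.5 to 142.2 elsewhere. The endothelial sum (6 genes) ran from 455.7 to 662.9 units in red-only cells and from 263.1 to 811 in green-only cells. It was highest in the green-only sample of experiment B. Double-positive cells had 183.3 to 264.1 units and double-negative cells 119.3 to 214.3. The part of this signal in the members' values was not tested. Neural markers (4 of 5 on the array) ran from 95.2 to 158.2 units over all 12 arrays. The green-only array of experiment A had an endoderm marker sum (5 genes) of 1385 units against 310 and 467 in experiments B and C, and an endothelial sum of 263 against 811 and 763. The endoderm sum was 519 to 764 units in double-negative cells, 94.3 to 160 in double-positive cells and 98.4 to 179.8 in red-only cells. The double-positive array of experiment A had the highest actin 3′ to 5′ ratio, 1.55, and the highest 18S 5′ control signal, 793 units. The actin ratio was 1.47 and 1.40 on the double-positive arrays of experiments B and C. On double-negative arrays it was lower, at 1.36, 1.36 and 1.34, while the Gapdh ratios of these 2 populations overlapped. The part of this in the results was not tested. The double-positive array of experiment A was also the highest of its population for 7 of the 10 members, and the green-only array of experiment A the lowest of its population for 7.

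Titin, the spring itself, had an intensity of 891, 1042 and 595 units in double-positive cells of experiments A, B and C. In green-only cells it was 278, 549 and 295 units, in red-only cells 101, 106.7 and 150.3, and in double-negative cells 12.8, 11.5 and 11.97. The populations did not overlap, in the order double-positive, green-only, red-only, double-negative. On the scale of log2(intensity + 4.10), which understates the change of low genes, Ttn was 5.67 ± 0.25 (SE) higher in double-positive cells than in double-negative ones (limma adjusted p = 7.91e-09, n = 3 and 3). It was 4.48 ± 0.25 higher in green-only cells (limma adjusted p = 1.32e-07) and 2.91 ± 0.25 higher in red-only cells (limma adjusted p = 4.71e-06), both against the same double-negative arrays.

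Actn2, the alpha-actinin of the cardiac Z-disc, measured 430, 172 and 205 units in double-positive cells and 111.7, 92.9 and 127.7 in green-only cells. Red-only cells gave 27.1, 16.3 and 34.2 units, and double-negative cells 7.76, 7.46 and 6.72. No array of a population overlapped the next one in that order, although the double-positive array of experiment A stood far above the other double-positive arrays. Its log2 difference from double-negative cells was 4.47 ± 0.29 in double-positive cells, 3.32 ± 0.29 in green-only cells and 1.35 ± 0.29 in red-only cells (limma adjusted p = 1.31e-07, 4.38e-06 and 0.00394).

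Ldb3, also called ZASP or Cypher, is a PDZ-LIM protein that binds alpha-actinin. It measured 267, 144 and 110.1 units in double-positive cells, 72.2, 63.6 and 84.6 on green-only arrays, 21.5, 13.1 and 22.8 on red-only arrays and 9.05, 6.90 and 5.44 in double-negative cells. The populations again did not overlap. The log2 difference from double-negative cells was 3.90 ± 0.26 in double-positive cells, 2.79 ± 0.26 in green-only cells and 1.03 ± 0.26 in red-only cells. The red-only difference had a limma adjusted p of 0.0117, which became 0.0510 without the red-only array of experiment C and 0.0501 without the double-negative array of experiment C.

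Csrp3, the muscle LIM protein of the Z-disc, measured 433, 351 and 269.9 units in double-positive cells. It measured 140.4, 200.01 and 180.4 on green-only arrays, 54.0, 45.7 and 71.3 on red-only arrays and 13.8, 14.9 and 6.24 in double-negative cells. The 4 populations did not overlap, and the double-negative array of experiment C was the lowest. The log2 difference from double-negative cells was 4.52 ± 0.24 in double-positive cells, 3.53 ± 0.24 in green-only cells and 1.98 ± 0.24 in red-only cells.

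Tcap, or telethonin, caps the end of titin at the Z-disc. It showed the smallest log2 difference of the 9 members tested between double-positive and double-negative cells, 1.15 ± 0.12 (limma adjusted p = 1.11e-05). Its 1 probe set gave 23.9, 20.4 and 26.6 units in double-positive cells, 12.1, 17.1 and 16.4 on green-only arrays, 10.05, 9.78 and 10.1 on red-only arrays and 9.77, 6.73 and 8.64 in double-negative cells. Red-only and double-negative arrays did not overlap, but the lowest red-only array (9.781 units) and the highest double-negative array (9.767 units) nearly met. The red-only difference was 0.18 on the log2 scale, with a 95% interval of -0.08 to 0.44 (limma adjusted p = 0.341).

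Nebl, nebulette, is the cardiac relative of nebulin at the edge of the Z-disc. Its values were 269, 208 and 180.4 units in double-positive cells, 60.6, 101 and 91.3 on green-only arrays, 29.1, 23.1 and 36.3 on red-only arrays and 9.89, 11.2 and 6.48 in double-negative cells. All 4 populations were apart. The log2 difference from double-negative cells was 4.07 ± 0.21 in double-positive cells, 2.72 ± 0.21 in green-only cells and 1.34 ± 0.21 in red-only cells.

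Smpx, a small muscle protein linked to the costamere and Z-disc, measured 68.2, 32.2 and 37.1 units in double-positive cells and 11.8, 8.67 and 8.93 in green-only cells. Red-only cells gave 5.01, 4.202 and 5.77 units, and double-negative cells 3.08, 2.49 and 2.65, close to 2.09, the lowest value on any array. It passed the filter on low values on the strength of the double-positive and green-only arrays, so a difference between those and the rest was built into its being tested. The log2 difference from double-negative cells was 2.80 ± 0.19 in double-positive and 1.02 ± 0.19 in green-only cells, while the red-only difference was 0.41 ± 0.19 (limma adjusted p = 0.163). With a pseudocount of 1 the red-only difference was 0.68 (adjusted p = 0.0372). Without the double-positive array of experiment A it stayed at 0.41 and its adjusted p became 0.0117. All 6 red-only and double-negative values lie below the median of their own array.

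Myoz2, calsarcin-1, is an alpha-actinin and calcineurin binding protein of heart and slow muscle. It measured 4.08, 4.75 and 3.85 units in double-positive cells, 4.00, 4.97 and 4.53 on green-only arrays, 3.93, 4.72 and 3.75 on red-only arrays and 4.36, 3.83 and 4.19 in double-negative cells. All 12 values lie below the median of their own array, and the populations overlap. It did not pass the filter, and without a filter the double-positive minus double-negative difference was 0.02 (limma adjusted p = 0.920). This says that its probe set was in the lower part of every array, not that the gene was silent.

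Myom1, myomesin-1, is the M-band protein among the members. It measured 382, 243 and 227 units in double-positive cells, 99.6, 129.3 and 103.1 on green-only arrays, 38.5, 19.7 and 42.4 on red-only arrays and 9.05, 5.31 and 5.603 in double-negative cells. The populations did not overlap. The log2 difference from double-negative cells was 4.72 ± 0.25 in double-positive cells, 3.42 ± 0.25 in green-only cells and 1.77 ± 0.25 in red-only cells.

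Des, desmin, the muscle intermediate filament, measured 262, 196 and 183 units in double-positive and 82.6, 101.7 and 104.7 in green-only cells. Red-only cells gave 73.9, 69.2 and 105.7 units, and double-negative cells 26.1, 26.4 and 30.04. Here the green-only and red-only arrays overlapped, while both stood above the double-negative and below the double-positive arrays. The log2 difference from double-negative cells was 2.77 ± 0.16 in double-positive cells, 1.66 ± 0.16 in green-only cells and 1.44 ± 0.16 in red-only cells.

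**Figure D1:**
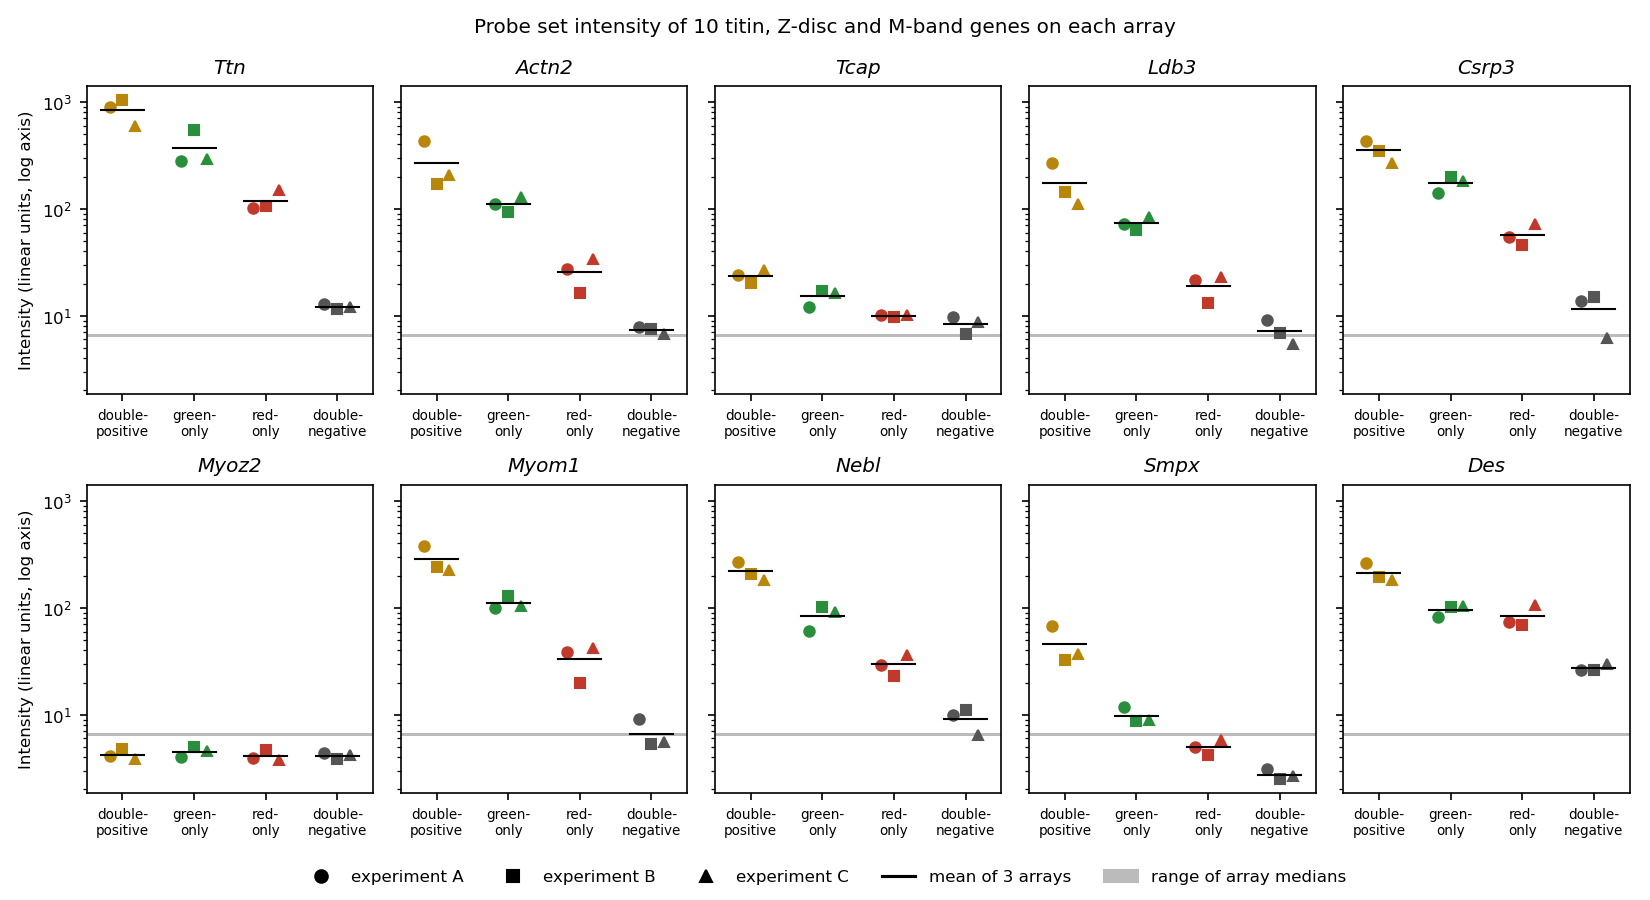
Intensity of the highest probe set of each of the 10 members on each array, on a log axis, by sorted population. Circles, squares and triangles are experiments A, B and C, black bars are means of 3 arrays and the grey band is the range of the 12 array medians, 6.29 to 6.73 units; 9 members step down from double-positive to double-negative cells and Myoz2 stays under the band.

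The F-test over the 4 populations called 9 of the 9 members tested, against 32.3% of all genes. The order of the population means was double-positive, green-only, red-only, double-negative for 9 of the 10 members, all but Myoz2. Against double-negative cells, 9 of the 9 members tested were higher in double-positive cells, with a median log2 difference of 4.07 and a range of 1.15 to 5.67. The limma adjusted p of Csrp3, Myom1, Nebl and Des against double-negative cells was at most 0.000478, that of Nebl in red-only cells. The background in the double-positive comparison was 13.9% of 13698 genes called higher, and the median over all genes was -0.01. Green-only cells had 9 of 9 members higher, with a median of 2.79, against 9.34% of all genes. Red-only cells had 7 of 9 higher, with a median of 1.35, against 10.9% of all genes. The exceptions in red-only cells were Tcap and Smpx, of which Smpx was called with a pseudocount of 1 or without the double-positive array of experiment A, for a count of 8. For these 9 members, every array of double-positive, green-only and red-only cells lay above every double-negative array, which held for 20.1%, 14.8% and 17.3% of all genes. These 3 comparisons share the double-negative arrays, and Smpx and Myoz2 entered or left the tested set through the filter, so the counts describe the tested members only.

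**Figure D2:**
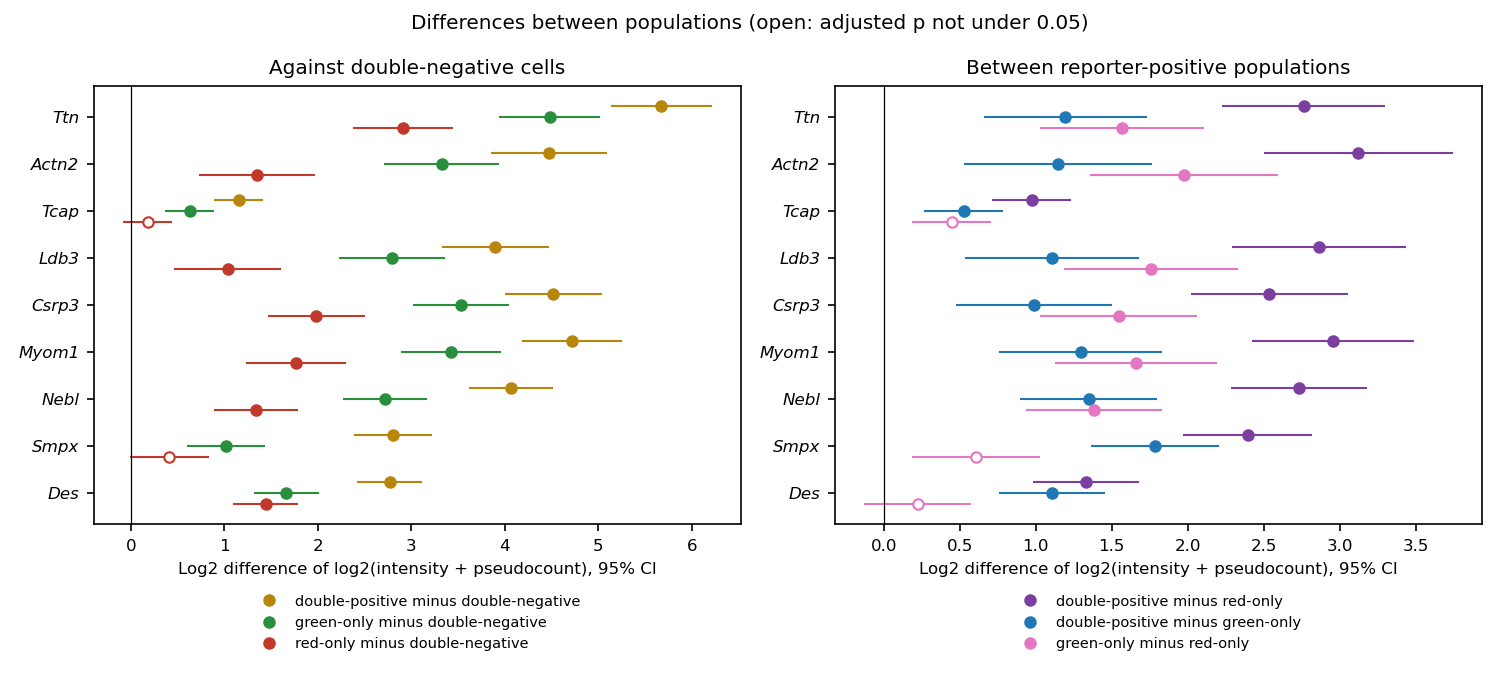
Log2 differences of the 9 tested members with 95% intervals, on the left against double-negative cells and on the right between the reporter-positive populations. Filled points have a limma adjusted p under 0.05; the 5 open points are Tcap and Smpx in red-only minus double-negative, and Tcap, Smpx and Des in green-only minus red-only.

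Among the reporter-positive populations, double-positive cells were above red-only cells for 9 of 9 members tested, by 0.97 (Tcap) to 3.12 (Actn2) on the log2 scale, against 5.94% of all genes called higher. Every double-positive array lay above every red-only array for these 9 (14.4% of all genes). As a share of the double-positive mean, the red-only mean ran from 9.6% for Actn2 to 16.2% for Csrp3 in 7 of the 9 members, with Ttn at 14.2%, and was 38.8% for Des and 42.2% for Tcap. The share of Smpx, 10.9%, rests on red-only values below the array median.

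Green-only cells were above red-only cells for 6 of 9 members, Ttn, Actn2, Ldb3, Csrp3, Myom1 and Nebl, by 1.38 (Nebl) to 1.98 (Actn2), against 1.77% of all genes called higher. The arrays did not overlap for 8 members, Des being the exception among those tested, against 9.31% of all genes. Desmin differed by 0.22, with a 95% interval of -0.13 to 0.57 (limma adjusted p = 0.602). Its difference was 0.15 in experiment A, 0.53 in B and -0.01 in C. Smpx differed by 0.61 (limma adjusted p = 0.135) and Tcap by 0.45 (limma adjusted p = 0.0698), both above 0 in 3 of 3 experiments. With the experiment as a block, which pairs the arrays, 8 members were called, Smpx with an adjusted p of 0.0385 and Tcap with 0.0464. The block also raised the count of all genes called higher, from 242 to 429. Leaving out the double-positive array of experiment A gave Smpx an adjusted p of 0.00684, and leaving out the green-only array of experiment A gave Tcap 0.0148. Whether the desmin difference departs from that of the other members was not tested.

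Double-positive cells were also above green-only cells for 9 of 9 members tested, against 2.85% of all genes called higher. The log2 differences ran from 0.53 ± 0.12 (Tcap) to 1.79 ± 0.19 (Smpx), and all 9 were above 0 in 3 of 3 experiments. For all 9, the double-positive arrays lay above the green-only arrays, as they did for 11.5% of all genes. Of the pairwise comparisons, this is the one whose count of members changed most with single arrays left out. The count was 4 of 9 without the double-positive array of experiment A, 5 without the green-only array of experiment A and 3 without both. The calls over all genes fell too, from 391 higher to 184, 272 and 150 in these fits. It was 6 without the double-positive array of experiment B or the green-only array of experiment C, 7 without the green-only array of experiment B, and 8 without the double-positive array of experiment C or the double-negative array of experiment B or C.

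Of the 9 differences, those of Nebl, Smpx, Des and Myom1 kept an adjusted p under 0.05 with any 1 of the 12 arrays left out, and Myom1 alone of these 4 lost it with both arrays of experiment A left out (log2 difference 0.997, limma adjusted p = 0.0708). Within experiments, the double-positive minus green-only difference of Actn2 was 1.91 in A, 0.86 in B and 0.67 in C. That of Smpx was 2.19, 1.51 and 1.66. The cardiomyocyte marker sum, which was 19678 units on the double-positive array of experiment A and 14804 and 14946 on the others, and the endoderm sum of the green-only arrays moved with this result, and their part in it was not tested.

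As a position between double-negative (0%) and double-positive (100%) on the log2 scale, green-only cells lay at 79% for Ttn, 74.4% for Actn2, 71.6% for Ldb3, 78.1% for Csrp3, 72.5% for Myom1 and 66.9% for Nebl. They lay at 60.1% for Des, 54.4% for Tcap and 36.3% for Smpx. Red-only cells lay at 51.3% for Ttn and 52% for Des, at 26.5% to 43.9% for Actn2, Ldb3, Csrp3, Myom1 and Nebl, and at 15.7% for Tcap and 14.6% for Smpx. Desmin is thus the member whose red-only and green-only positions lie closest together, and Smpx the one whose green-only position is nearest to double-negative cells.

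The reporter interaction asks whether the step with eGFP is the same in dsRed-positive as in dsRed-negative cells. It was called for 2 of the 9 members tested, against 10.5% of all genes in either direction (4.8% above 0 and 5.67% below). For Ttn it was -1.72 ± 0.35 on the log2 scale (limma adjusted p = 0.00765): the eGFP step was 2.76 from red-only to double-positive and 4.48 from double-negative to green-only cells. The value was below 0 in 3 of 3 experiments, from -2.26 to -0.98. For Smpx it was 1.38 ± 0.28 (limma adjusted p = 0.00678), with steps of 2.39 and 1.02, and above 0 in 3 of 3 experiments, from 1.11 to 1.84. Smpx was tested only because its double-positive and green-only arrays passed the filter, and both steps start from arrays below their own median, so its value is given as a description. With a minimum fold of 1.5, limma's treat called the interaction for 0 of the 9 members, and 2 had an unadjusted p under 0.05. Over all 13698 genes, treat called it for 117.

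The size of an interaction depends on the log scale, and the double-negative Smpx values lie near the lowest value on any array. Csrp3 had an interaction of -0.995 ± 0.34 (limma adjusted p = 0.0828). Without the green-only array of experiment A it was -1.14 (adjusted p = 0.0455), and without both arrays of experiment A named above -1.30 (adjusted p = 0.0276). Actn2, Tcap, Ldb3, Myom1, Nebl and Des had interactions between -0.47 and 0.34 that were not called. For Nebl the value was 0.01 with a 95% interval of -0.63 to 0.65.

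**Figure D3:**
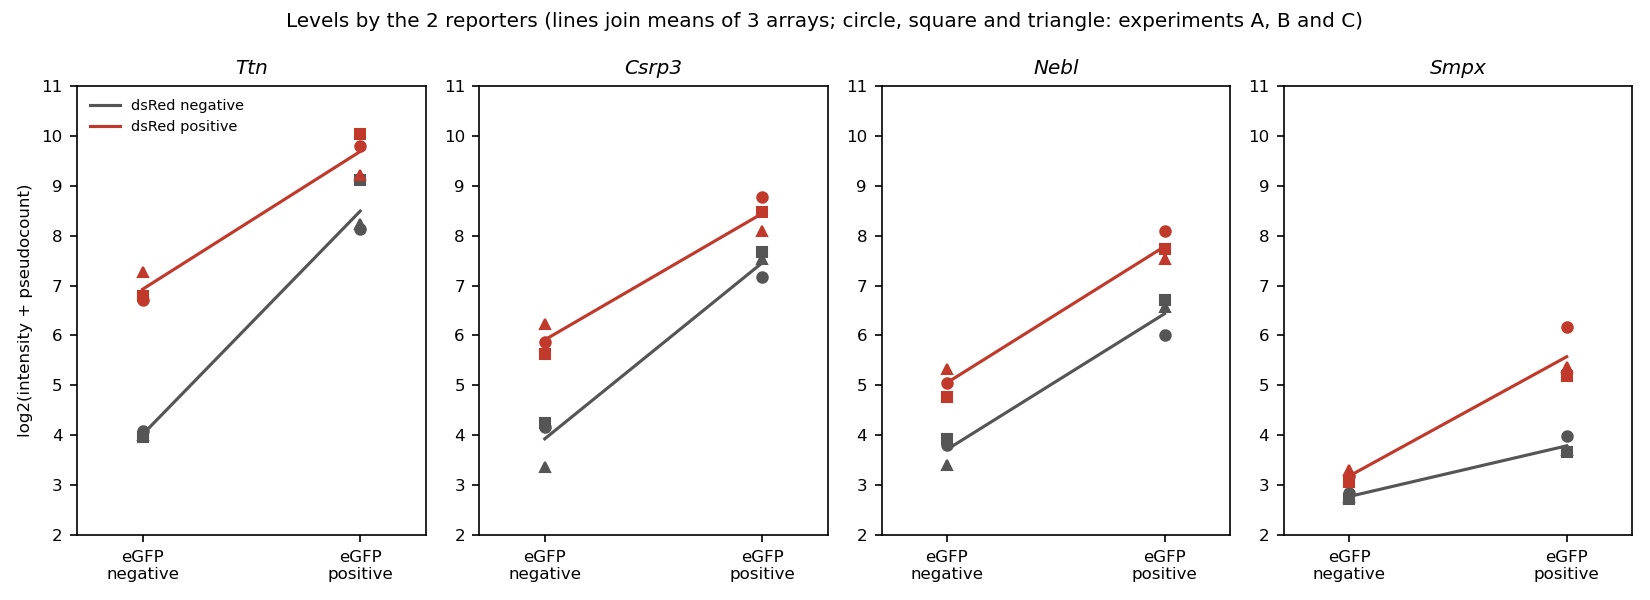
Log2(intensity + 4.10) of Ttn, Csrp3, Nebl and Smpx by eGFP status (horizontal axis) and dsRed status (colour), with lines joining the means of 3 arrays and a point for each array. The lines of Ttn close up towards the eGFP-positive side, those of Nebl run side by side and those of Smpx spread apart.

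The other probe sets show how far each gene's values depend on the probe set chosen. Ttn has 6 probe sets, of which 5 were tested, and all 5 were higher in double-positive cells than in double-negative ones, by 2.59 to 5.67 on the log2 scale. The sixth ran from 4.08 to 5.49 units on all 12 arrays, below the median of each array. The interaction was also called for the Ttn probe set of second-highest mean (-1.44, limma adjusted p = 0.00683 when every probe set was tested), but not for the remaining 3, at -0.24, 0.13 and 0.45. So the departure from equal steps was called for the 2 titin probe sets with the highest means and not for the others tested.

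Ldb3 has 3 probe sets, whose double-positive minus double-negative differences were 3.90, 1.93 and 1.31. The second and the last were not called in red-only cells, at 0.32 and 0.09. The second Nebl probe set was higher by 2.51 in double-positive cells, and the last, from 3.59 to 10.51 units, did not pass the filter. Desmin has 2 probe sets that disagree: the second ran from 6.01 to 11.005 units on all 12 arrays, and its double-positive minus double-negative difference was 0.21 (limma adjusted p = 0.290). Of its 6 pairwise differences, limma called 0, and 0 had an unadjusted p under 0.05, so every statement on desmin rests on the first probe set. The other 6 members have 1 probe set each.

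**Figure D4:**
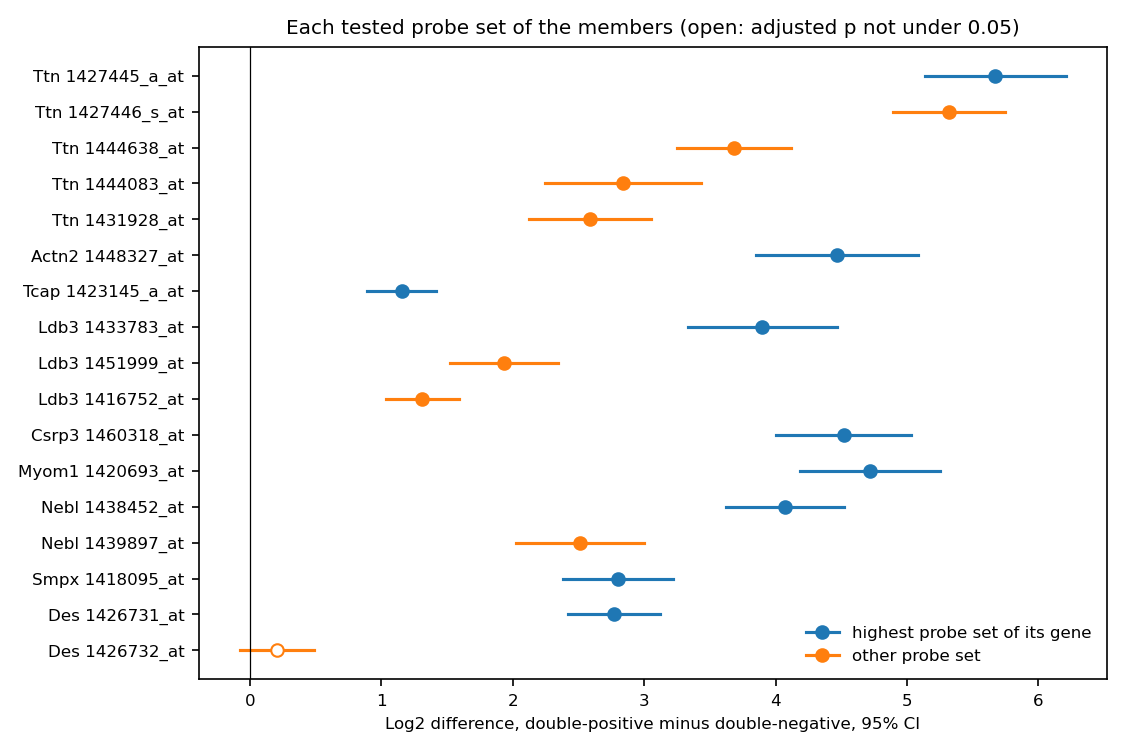
Log2 difference between double-positive and double-negative cells with 95% intervals for each of the 17 member probe sets that passed the filter, blue for the highest probe set of a gene and orange for the others. The second desmin probe set, open, sits at 0.21 while 16 others lie between 1.15 and 5.67.

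Other genes of the same structures were counted from fixed lists, whose names are broad and which include some genes of other parts of the sarcomere. Of 39 Z-disc and titin-spring partners, 37 were on the array and 35 were tested. In double-positive against double-negative cells, 25 of the 35 were higher (13.9% of all genes) and 1, the broadly expressed alpha-actinin Actn4, was lower by 0.60 (17.6% of all genes were called lower), with a median of 0.86. With a minimum fold of 1.5, tested by limma's treat, 15 were higher and 0 lower, and the lower count at an unadjusted p under 0.05 was also 0. The Actn4 call was lost without any 1 of 4 arrays, the double-positive arrays of experiments B and C and the double-negative arrays of A and C. The 4 with the largest differences were Sorbs2, a scaffold of the Z-disc (4.25 ± 0.20), Synpo2l (4.10 ± 0.19), Nexn (3.99 ± 0.21) and Tmod1 (3.49 ± 0.18). Nexn encodes an actin-binding Z-disc protein, and Tmod1 one that caps thin filaments at the ends away from the Z-disc.

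Green-only cells had 26 of these 35 partners higher than double-negative cells (9.34% of all genes), with a median of 0.68, and red-only cells 16 (10.9% of all genes), with a median of 0.29. With the minimum fold of 1.5 these counts were 8 and 6. Double-positive cells had 18 higher than red-only cells (5.94% of all genes), or 9 with the minimum fold, and 1 lower, Pdlim3 (6.17% of all genes). The Pdlim3 call was lost when the red-only array of experiment C was left out, as it was with the minimum fold, and without both arrays of experiment A the count was 2, with Actn4. Double-positive cells had 10 higher than green-only cells (2.85% of all genes). That count was 6 in a fit to the 6 arrays compared and 0 with limma's treat at the minimum fold, where 8 had an unadjusted p under 0.05. Between green-only and red-only cells, 6 were higher in green-only (1.77% of all genes) and 1, again Pdlim3, was lower (1.32% of all genes). With the minimum fold, limma's treat left Cryab alone as higher and called 0 lower, with 1 lower at an unadjusted p under 0.05. The small heat shock protein gene Cryab, whose product protects desmin and titin, was higher in green-only than in red-only cells by 2.16 ± 0.25 (limma adjusted p = 0.00055). Its green-only values were 56.6, 58.1 and 57.7 units and its red-only values 11.6, 6.00 and 12.4.

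Pdlim3, which encodes a LIM protein bound to alpha-actinin, was the exception in both comparisons. It was highest in red-only cells, at 125.1 ± 17.95 units (SD, n = 3) against 76.0 ± 5.0 in double-positive cells, 61.6 ± 9.0 in green-only cells and 30.3 ± 8.1 in double-negative cells. Its interaction was -1.63 ± 0.22 (limma adjusted p = 0.000561). The interaction was called for 3 of the 35 Z-disc and titin-spring partners tested, against 10.5% of all genes. Ankrd1, a stretch-responsive titin-spring protein, varied widely in double-positive cells, with 265, 31.2 and 81.6 units in experiments A, B and C.

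Of 16 M-band and titin-kinase partners, 13 were on the array and 11 were tested. In double-positive cells 5 were higher than in double-negative cells (13.9% of all genes), with a median of 0.26. The largest differences were those of Mybpc3, cardiac myosin-binding protein C (4.57 ± 0.21), Smyd1, a muscle methyltransferase (4.54 ± 0.20), Trim63, the ubiquitin ligase MuRF1 (1.76 ± 0.19), and Speg, a kinase of striated muscle (1.39 ± 0.12). Mybpc3 encodes a thick-filament protein outside the M-band. Obsl1 was also higher, by 0.46, and Cmya5 was not called (0.20, limma adjusted p = 0.288). The myomesin genes Myom2 and Myom3 did not pass the filter. Green-only cells had 5 of the 11 higher (9.34% of all genes) and red-only cells 4 (10.9%), and with the minimum fold of 1.5 Mybpc3 and Smyd1 were the 2 called in each. Double-positive cells had 5 higher than red-only cells (5.94% of all genes), or 3 with the minimum fold. They had 4 higher than green-only cells (2.85% of all genes), or 0 by limma's treat with the minimum fold, where 3 had an unadjusted p under 0.05. In green-only against red-only cells 2 were higher (1.77% of all genes), Mybpc3 by 1.62 ± 0.21 and Smyd1 by 0.82 ± 0.20, and the count was 1 with any of 8 single arrays left out: the double-positive, green-only and double-negative arrays of experiments B and C, and the red-only arrays of A and B. It was also 1 with no filter on low values or in a fit to the 6 arrays compared, and 0 by limma's treat with the minimum fold, where 1 had an unadjusted p under 0.05.

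The 9 intermediate filament network genes did not share 1 direction. In double-positive against double-negative cells, 4 were higher (13.9% of all genes) and 2 were lower (17.6% of all genes were called lower). The 2 lower genes were the epithelial keratins Krt18 (-2.61 ± 0.52) and Krt8 (-1.89 ± 0.34). Krt8 measured 1352, 488 and 498 units in green-only cells of experiments A, B and C, where the endoderm marker sums were 1385, 310 and 467 units. These sums were 519 to 764 units in double-negative and 94.3 to 160 in double-positive cells, and their part in the keratin values was not tested. Dsp and Jup, which encode desmosome proteins that anchor desmin, were higher in double-positive cells by 1.55 ± 0.32 and 1.03 ± 0.09. Vim, vimentin, was highest in red-only cells, at 2540 ± 283 units against 1174 ± 207 in double-positive cells, 1758 ± 624 in green-only cells and 717 ± 132 in double-negative cells, with an interaction of -2.35 ± 0.34. Vim was the 1 gene of these 9 called for the interaction, against 10.5% of all genes. Red-only cells had 3 of these genes higher (10.9% of all genes) and 3 lower than double-negative cells (12.7% of all genes were called lower), and green-only cells 4 higher (9.34%). Krt8 and Krt18 were the 2 that were lower in double-positive than in green-only cells (2.77% of all genes), and Krt8 alone was called in a fit to the 6 arrays compared. With the minimum fold of 1.5, Jup in double-positive cells and Vim in red-only cells were the 1 gene called higher than in double-negative cells in each. Limma's treat then called 0 higher in green-only cells and 0 lower in red-only cells, where 3 and 2 had an unadjusted p under 0.05, and 0 lower in double-positive than in green-only cells, where 2 had. In green-only against red-only cells 3 were higher (1.77% of all genes), but limma called 0 in a fit to the 6 arrays compared, where 6 had an unadjusted p under 0.05, and 0 with the minimum fold, where 3 had. The count was 1 when genes of low intensity were kept, and 1 without the green-only array of experiment A, the red-only array of B or C, or the double-negative array of B.

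**Figure D5:**
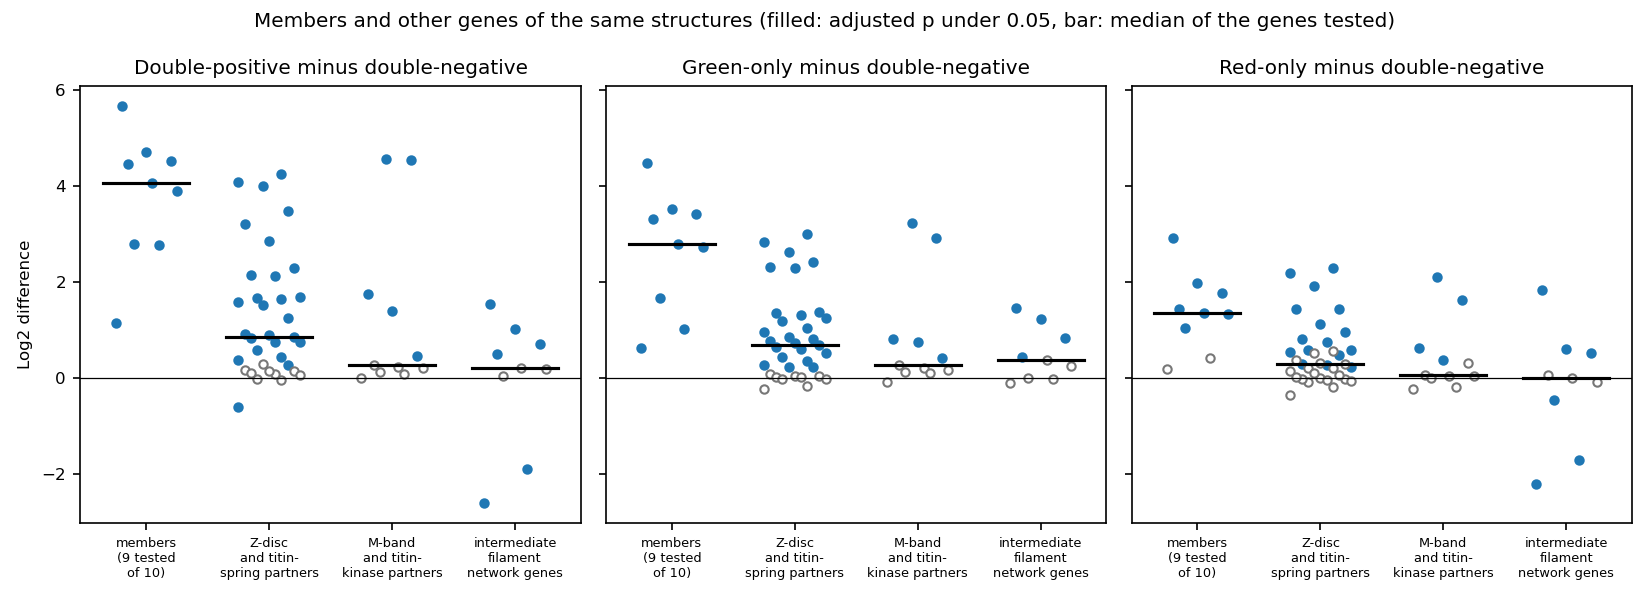
Log2 difference from double-negative cells of each tested gene among the members (9) and the 3 lists of other genes (35, 11 and 9), in double-positive, green-only and red-only cells. Filled points have a limma adjusted p under 0.05 and bars are medians; in double-positive cells the medians are 4.07, 0.86, 0.26 and 0.21.

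The members' profiles over the 12 arrays were close to each other. Pearson's r between pairs of the 9 members tested ran from 0.832 (Ttn and Smpx) to 0.995 (Actn2 and Ldb3). The arrays fall into 4 populations and the genes share those arrays, so these values describe the common steps between populations. The 5 genes whose profile was most like the mean of the 10 members were Mybpc3 (r = 0.999), Asb2, Hspb7, Atp2a2, the calcium pump of the sarcoplasmic reticulum, and Alpk2 (r between 0.994 and 0.995). Mybpc3 measured 594 ± 190 units in double-positive cells, 227 ± 18 on green-only arrays, 72.7 ± 20.1 on red-only arrays and 20.6 ± 4.7 in double-negative cells.

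Member by member, the gene outside the list with the most similar profile was Tgfb1i1 for Ttn (r = 0.993), Rrad for Actn2 (0.992) and Ldb3 (0.991), and Atp2a2 for Csrp3 (0.992). It was Mybpc3 for Myom1 (0.997), Kcnh2 for Nebl (0.994), Palld for Smpx (0.985), Mmd for Des (0.997) and Gys1 for Tcap (0.976). Mmd, like desmin, had similar means in green-only (116.5 ± 16.9 units) and red-only cells (106.6 ± 19.2), between 215.9 ± 30.1 in double-positive and 40.01 ± 3.4 in double-negative cells. For Myoz2, whose values stayed in the lower part of every array, the closest was Zfp937 at 0.868.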

How the data were processed

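Per the labels, biotinylated cRNA from total RNA was hybridised to Affymetrix arrays. The deposited values are linear intensity per probe set and array, and MAS5 is the only tool the submitters' processing notes name. Version, scaling and detection calls are not given in the sources used here. Groups come from titles, since the sort's description misprints 1 population. Array medians ran from 6.29 to 6.73 units, and 3 arrays per group limit the precision.

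Of 45101 probe sets, 64 controls, 932 with several genes and 9160 with none were left out. Symbols were updated by gene ID. Each of 18193 genes was represented by its brightest probe set as log2(intensity + 4.10), the 25th percentile of all values. Genes with a mean under 3.22 (40th percentile) were left out, leaving 13698.

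One limma 3.58.1 model (R 4.3.3) held all 12 arrays. P-values of the 6 pairwise contrasts, the F-test and the interaction were adjusted separately over all genes tested (Benjamini-Hochberg, threshold 0.05, contrasts two-sided). The code was checked on simulated data.

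Experiment letters pair samples: over 18 same-letter pairs, deviations from group means correlated at 0.116 to 0.423. The mean for other letters, -0.131, adds no evidence, because deviations cancel within each group and so tie it to the same-letter mean. Alternatives were other pseudocounts, filters, probe sets and normalization, a minimum fold, a block and omitted arrays. All members were named in every comparison, with up to 4 called genes per list by size. Members and lists were chosen with earlier results of these data known.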

Additional observations from a re-analysis of the deposited data

Results flagged for a closer look

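The interaction term of the limma fit asks whether the eGFP difference is the same in dsRed-positive and dsRed-negative cells. It was called for 2 of the 9 members tested and for 10.5% of all genes in either direction. Whether the share among so few members differs from that of all genes was not tested. For Ttn the interaction was -1.72 on the log2 scale (adjusted p = 0.00765), below 0 in 3 of 3 experiments. For Smpx it was 1.38 (adjusted p = 0.00678), above 0 in 3 of 3 experiments. Smpx passed the filter on low values through its double-positive and green-only arrays, and its 6 red-only and double-negative values lie below the median of their own array, so its value is a description. Both directions held in all 24 settings run, from -1.98 to -1.41 for Ttn and from 1.08 to 1.57 for Smpx, with an adjusted p from 0.00307 to 0.211 and from 0.000211 to 0.339. The highest p in each range came with a minimum fold of 1.5, where neither was called. These settings used only the Ttn probe set of highest or second-highest mean. The other tested Ttn probe sets had interactions of -0.24, 0.13 and 0.45, which differ in sign and were not called.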

How the results depend on the processing

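Adding the experiment as a block, which pairs the arrays, raised the count of members called in green-only minus red-only cells from 6 to 8 and changed no other call on a member. In that comparison the count of all genes called higher rose from 242 to 429. Leaving out 1 array at a time gave 4 to 9 members called in double-positive minus green-only cells. That count was 5 with a fit to the 6 arrays compared and 3 without the double-positive and green-only arrays of experiment A, an alternative chosen after seeing the data. Over all genes, the count called higher fell from 391 to 151 and 150 in these fits. With a minimum fold of 1.5 tested by limma's treat, 4 members were called in red-only minus double-negative cells, 1 in double-positive minus green-only, 0 in green-only minus red-only (6 at an unadjusted p under 0.05) and 0 for the interaction (2 unadjusted). Over all genes, treat called 183, 2 and 12 higher in these pairwise comparisons, in that order, and 117 in either direction for the interaction. The interaction changed sign for 3 members and was called for none of them. With 1 array left out it ran from -0.59 to 0.057 for Actn2, -0.28 to 0.34 for Ldb3 and -0.20 to 0.17 for Nebl. With a pseudocount of 1 it was -0.16 for Ldb3 and -0.21 for Nebl, and without both arrays of experiment A -0.29 and -0.36. The cause was not tested. The second desmin probe set ended all its calls, that of Ldb3 those in red-only minus double-negative and green-only minus red-only cells, and that of Nebl the latter. Values for single members kept direction and side of the threshold in 1606 results, lost the call in 67, gained it in 12 and reversed in 15. Signal near the array median limits what Tcap, Smpx and Myoz2 can show.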
